A study of Heterocephalus glaber with 2 samples.

Results

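Genes of adipocyte identity and lipid storage were examined in dorsal full-thickness skin of the naked mole-rat (Heterocephalus glaber), a long-lived subterranean rodent. The set holds 10 listed genes, namely the fat cell hormones ADIPOQ and LEP, the transcription factor PPARG, the lipid droplet proteins PLIN1, PLIN4 and CIDEC, the fatty acid handling genes FABP4 and LPL, and the lipases LIPE and PNPLA2. A gene was taken from the deposited tables by its name, with case ignored and joined names split, and by the locus with the highest mean where several carried the name. Of the 10 genes, 9 were matched among 24514 loci, each by 1 locus. PLIN4 was matched by no name in the tables and is not analysed here. The PLIN1 locus is joined with PEX11A, a peroxisome gene, so its value cannot be assigned to PLIN1 alone.

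White adipocytes store triglyceride in a single large droplet, and full-thickness skin includes the fat below the dermis. Lipoprotein lipase, at the vessel wall, frees fatty acids from circulating lipoproteins, and fatty acid binding proteins carry them inside the cell. CIDEC and perilipin 1 enlarge and guard the droplet, while adipose triglyceride lipase (PNPLA2) and hormone-sensitive lipase (LIPE) break the stored fat down in sequence. PPARG drives the fat cell programme, and adiponectin (ADIPOQ) and leptin (LEP) are hormones that adipocytes release.

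The old animals were 19 years old and the young animals 4 years old, and no genotype, treatment or sex is used here. Each age had 2 RNA sequencing libraries, called old 1, old 2, young 1 and young 2 as the authors numbered them. The labels record 1 sample per age and do not say whether its 2 libraries came from different animals, so p-values reflect the variation among these libraries alone, and that may be technical. Values are FPKM, fragment counts normalised by the authors for locus length and library size, which allow levels of different genes to be set side by side.

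RNA composition followed the library number. Small structural RNAs held 51.1% of the summed FPKM in old 1 and 46.8% in young 1, but 0.327% in old 2 and 0.0933% in young 2. Mitochondrially encoded loci held 4.27% in old 1 and 6.49% in young 1, against 32.8% in old 2 and 26.4% in young 2. Across the 12753 loci that averaged 1 FPKM or more, log2 values correlated at 0.948 between old 1 and young 1, at 0.927 between old 2 and young 2, at 0.701 between the old libraries and at 0.712 between the young libraries. These coefficients run across genes, which are not independent replicates. The 5 adipocyte markers used to check the tissue (ADIPOQ, LEP and CIDEC, with the joined loci of PLIN1 and CFD) lay above the floor value in all 4 libraries. That check is weak, since between 16127 and 18441 of the 24514 loci lay above the floor in a library. Because RNA composition followed the library number, old skin is set against young skin within each number and then over all 4 libraries. Within a number the comparison is 1 library over 1 library with no replicate check.

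In number 1 all 9 genes were higher in old skin, by folds between 1.07 (LEP) and 2.57 (LPL). In number 2 the hormones and droplet genes ADIPOQ, LEP, PLIN1 and CIDEC were 2.69-fold to 9.03-fold lower in old skin, while the lipases PNPLA2, LIPE and LPL were 1.75-fold to 5.18-fold higher. None of the 9 genes was called by limma with all 4 libraries. The 9 genes together summed to 827 FPKM in old 1 and 501 FPKM in young 1, and to 276 FPKM in old 2 and 296 FPKM in young 2. As a share of the FPKM outside small structural RNAs and mitochondrial loci they made up 0.417% in old 1 and 0.267% in young 1, and 0.102% in old 2 and 0.0945% in young 2, so the direction of the sum in number 2 depends on the scaling. In bulk skin, a difference in the number of fat cells and a difference in RNA per fat cell cannot be told apart. The part of RNA composition and of other tissue in these sums was not tested.

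**Figure D1:**
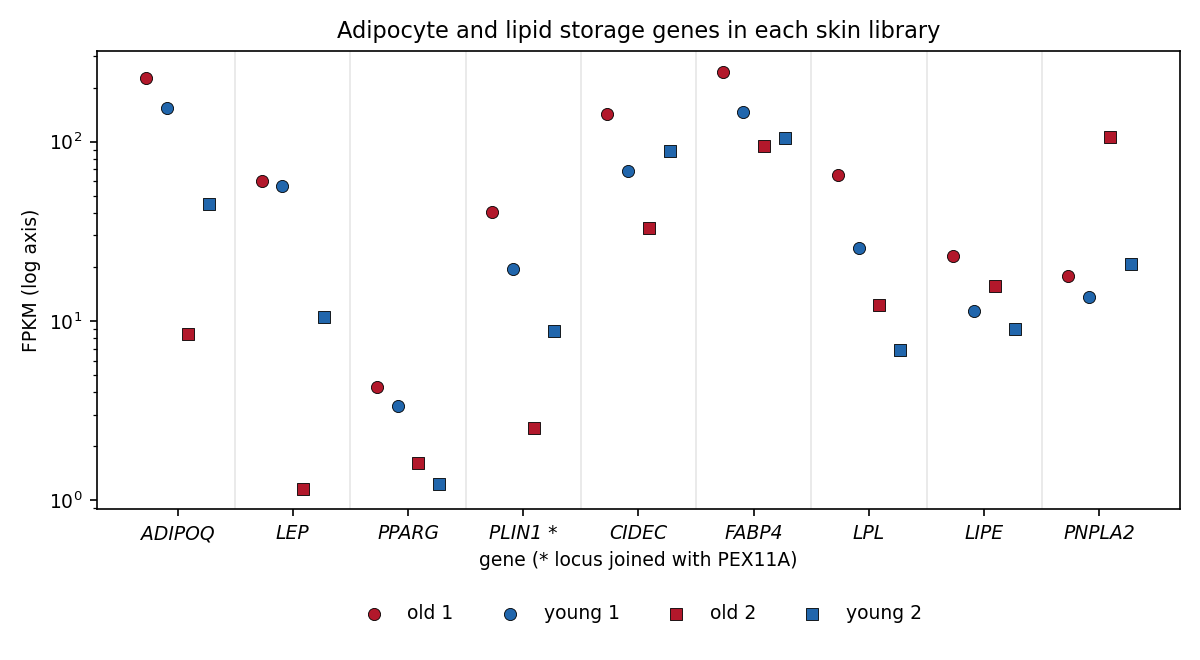
FPKM on a log axis for each of the 9 matched genes in each library, with red for old, blue for young, circles for number 1 and squares for number 2. In number 1 the old library lies above the young one for every gene, and in number 2 it lies below for ADIPOQ, LEP, PLIN1, CIDEC and, narrowly and not under every scaling, FABP4.

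The hormones showed the widest split. ADIPOQ stood at 226 FPKM in old 1 and 154 FPKM in young 1, and at 8.41 FPKM in old 2 and 45.1 FPKM in young 2. The old libraries thus held both its highest and its lowest value, with both young libraries between them. LEP stood at 60.7 FPKM in old 1 and 56.6 FPKM in young 1, and at 1.16 FPKM in old 2 and 10.5 FPKM in young 2. Both number 1 libraries were close to each other, and old 2 was 9.03-fold lower than young 2. On the log2(FPKM + 1) scale, on which changes of low genes are understated, the ratios of LEP were 0.10 in number 1 and -2.41 in number 2, and those of ADIPOQ were 0.55 and -2.29.

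PPARG, the nuclear receptor at the head of the fat cell programme, was the lowest of the 9 genes in old 1, young 1 and young 2. It stood at 4.27 FPKM in old 1 and 3.36 FPKM in young 1, and at 1.61 FPKM in old 2 and 1.22 FPKM in young 2. Its fold was 1.27 in number 1 and a similar 1.32 in number 2, but the old and young values overlapped because both number 2 libraries were low.

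The droplet proteins followed the hormones in number 2. CIDEC, which helps droplets fuse, stood at 143 FPKM in old 1 and 68.8 FPKM in young 1, and at 32.8 FPKM in old 2 and 88.5 FPKM in young 2. The PLIN1 locus, which carries the main coat protein of the adipocyte droplet together with PEX11A, stood at 40.6 FPKM in old 1 and 19.6 FPKM in young 1, and at 2.51 FPKM in old 2 and 8.80 FPKM in young 2. Both were just over 2-fold higher in old 1 than in young 1 (2.08 for CIDEC and 2.07 for PLIN1). In number 2 they were lower in old skin, 2.69-fold for CIDEC and 3.51-fold for PLIN1. The highest and the lowest value of each was in an old library.

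FABP4, the fatty acid binding protein of adipocytes and also of endothelial cells and macrophages, differed least between the number 2 libraries. It stood at 246 FPKM in old 1 and 147 FPKM in young 1, and at 95.1 FPKM in old 2 and 105 FPKM in young 2. Its log2 ratio in number 2 was -0.14, and it was 0.06 once small structural RNAs and mitochondrial loci had been removed and the libraries rescaled, so its direction there depends on the scaling. LPL stood at 65.2 FPKM in old 1 and 25.4 FPKM in young 1, and at 12.2 FPKM in old 2 and 6.89 FPKM in young 2. LPL was higher in old skin in both numbers, but young 1 lay above old 2, so the ages overlapped.

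The lipases that act on stored fat had folds above 1 in each number. LIPE stood at 23.0 FPKM in old 1 and 11.4 FPKM in young 1, and at 15.7 FPKM in old 2 and 9.01 FPKM in young 2. LIPE was the 1 gene of the 9 with both old libraries above both young ones, as were 7.30% of the loci tested, and 0 of the 9 had both old libraries below both young ones, beside 6.46% of the loci. PNPLA2, which removes the first fatty acid from triglyceride, stood at 17.9 FPKM in old 1 and 13.6 FPKM in young 1, and at 107 FPKM in old 2 and 20.6 FPKM in young 2. Old 2 stood 5.18-fold above young 2, while old 1 lay below young 2.

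**Figure D2:**
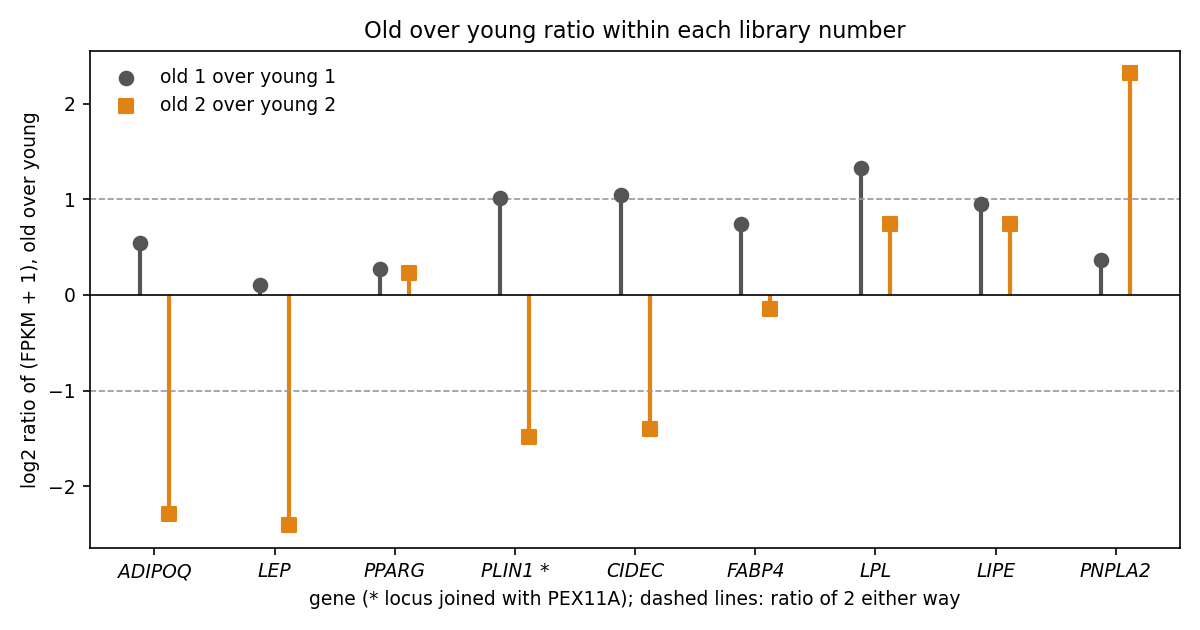
Log2 ratio of (FPKM + 1), old over young, for each gene within number 1 (grey circles) and number 2 (orange squares), each a ratio of 1 library to 1 library. Ratios in number 1 run from 0.10 to 1.33, and those in number 2 from -2.41 for LEP to 2.32 for PNPLA2; the small negative value of FABP4 turns positive under another scaling.

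Read against all loci, 9 of 9 genes were higher in old 1 than in young 1, where 58.7% of the loci tested were higher. In number 2, 4 of 9 were higher in old skin, beside 44.4% of the loci. PPARG, LPL, LIPE and PNPLA2 were higher in each number, 4 of 9 beside 26.7% of the loci, and 0 of 9 were lower in each, beside 23.1%. The other 5 were higher in number 1 and lower in number 2, beside 31.5% of the loci, and 0 of 9 had the opposite split, beside 17.6%. A ratio of at least 2 on the (FPKM + 1) scale was met in number 1 by PLIN1, CIDEC and LPL on the higher side, 3 of 9 beside 2.36% of the loci, and by 0 of 9 on the lower side, beside 1.83%. In number 2 PNPLA2 met it on the higher side, beside 4.33% of the loci, and ADIPOQ, LEP, PLIN1 and CIDEC on the lower side, 4 of 9 beside 5.55%. The genes had been chosen with their opposite ratios known, so these counts are descriptions.

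The 9 genes had a median log2 ratio of 0.74 in number 1, beside 0.07 over all loci tested. Their median in number 2 was -0.14, beside -0.06 over all loci. With small structural RNAs and mitochondrial loci removed from the scaling, the number 2 median was 0.06 for the 9 genes and 0.08 for all loci tested. For ADIPOQ, LEP, PLIN1 and CIDEC the log2 ratio in number 2 minus that in number 1 lay between -2.84 and -2.45. A gap of -2 or below was reached by 1.00% of the loci. Since the genes had been chosen with their opposite ratios known, that share is given as a description only. PNPLA2 had a gap of 1.95. Whether a ratio differs between the numbers could not be tested, since 4 libraries leave no residual degrees of freedom for that term.

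**Figure D3:**
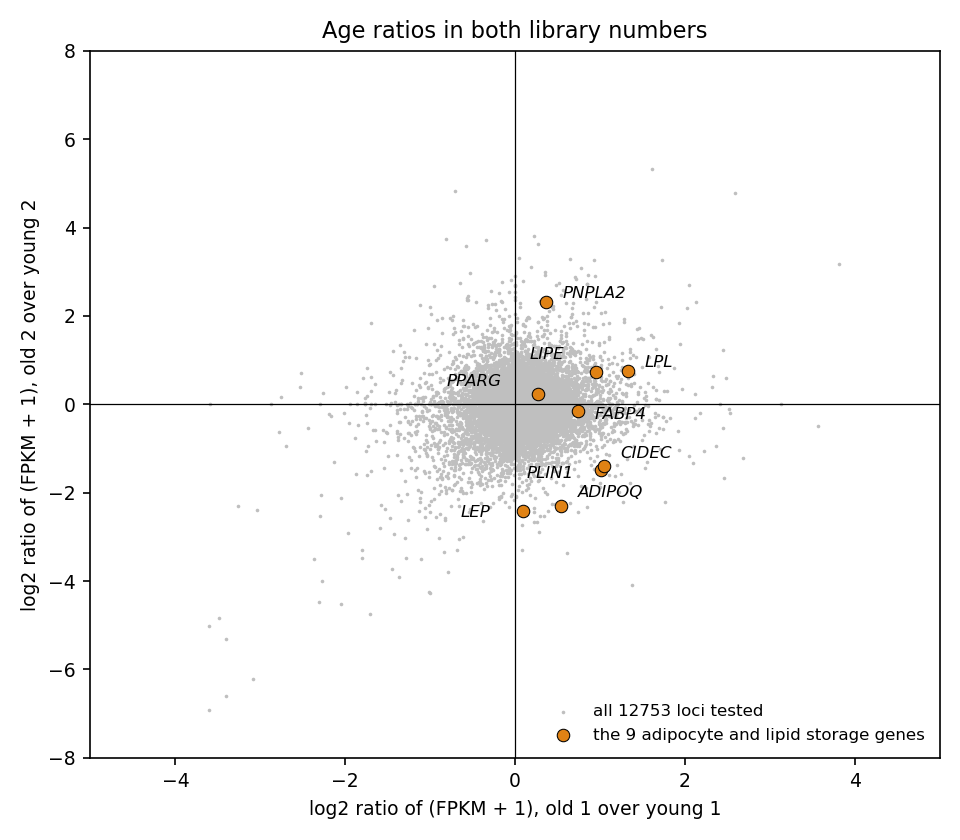
Log2 ratio of (FPKM + 1) in number 2 (vertical axis) against that in number 1 (horizontal axis) for all 12753 loci tested (grey) and the 9 matched genes (orange). ADIPOQ, LEP, PLIN1 and CIDEC lie in the lower right, higher in old 1 and lower in old 2, and PNPLA2 is the highest of the 9 on the vertical axis at 2.32.

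Over all 4 libraries, limma on log2(FPKM + 1) with age as the single term called 0 of 9 genes higher and 0 lower in old skin, as it called 0.00% of 12753 loci in either direction at adjusted p 0.05. Without adjustment, 0 of 9 had a p under 0.05 in either direction, beside 0.196% of loci higher and 0.416% lower. LIPE had the lowest unadjusted p of the 9, with a log2 difference of 0.85 ± 0.51 (SE) and a limma adjusted p that rounds to 1. The log2 difference was 1.34 ± 0.92 (SE) for PNPLA2 and 1.04 ± 1.00 (SE) for LPL. It was -0.87 ± 1.59 (SE) for ADIPOQ and -1.15 ± 1.69 (SE) for LEP, errors larger than the differences. In this fit, differences between the library numbers count as error. With library number in the limma fit the SE was 0.61 for ADIPOQ and 0.53 for LEP, smaller than the differences. The limma adjusted p was then 0.958 for ADIPOQ and 0.801 for LEP. For PPARG, PLIN1, CIDEC and FABP4 it lay between -0.23 and 0.30. With old 1 left out the log2 difference of LEP was -3.57, and with old 2 left out it was 1.26. Such a fit sets 1 old library against young libraries of both numbers, so it mixes age with library number. Within a number, the log2 ratio of LEP was 0.10 in number 1 and -2.41 in number 2.

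The make-up of the fat signal also differed between libraries. ADIPOQ made up 27.3% of the 9 genes' summed FPKM in old 1 and 30.8% in young 1, against 3.04% in old 2 and 15.2% in young 2. PNPLA2 made up 2.16% in old 1 and 2.72% in young 1, against 38.7% in old 2 and 6.98% in young 2. The level of ADIPOQ was 12.6 times that of PNPLA2 in old 1 and 11.3 times in young 1, but 0.0787 times in old 2 and 2.18 times in young 2. FABP4 held a narrower range, from 29.4% in young 1 to 35.6% in young 2.

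By level, the order was FABP4, ADIPOQ and CIDEC in old 1 and ADIPOQ, FABP4 and CIDEC in young 1. In old 2 it was PNPLA2, FABP4 and CIDEC, and in young 2 FABP4, CIDEC and ADIPOQ. The neighbours FABP4 and ADIPOQ in old 1 and in young 1 differed by less than either gene did between the libraries of an age. LEP was the lowest of the 9 in old 2.

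**Figure D4:**
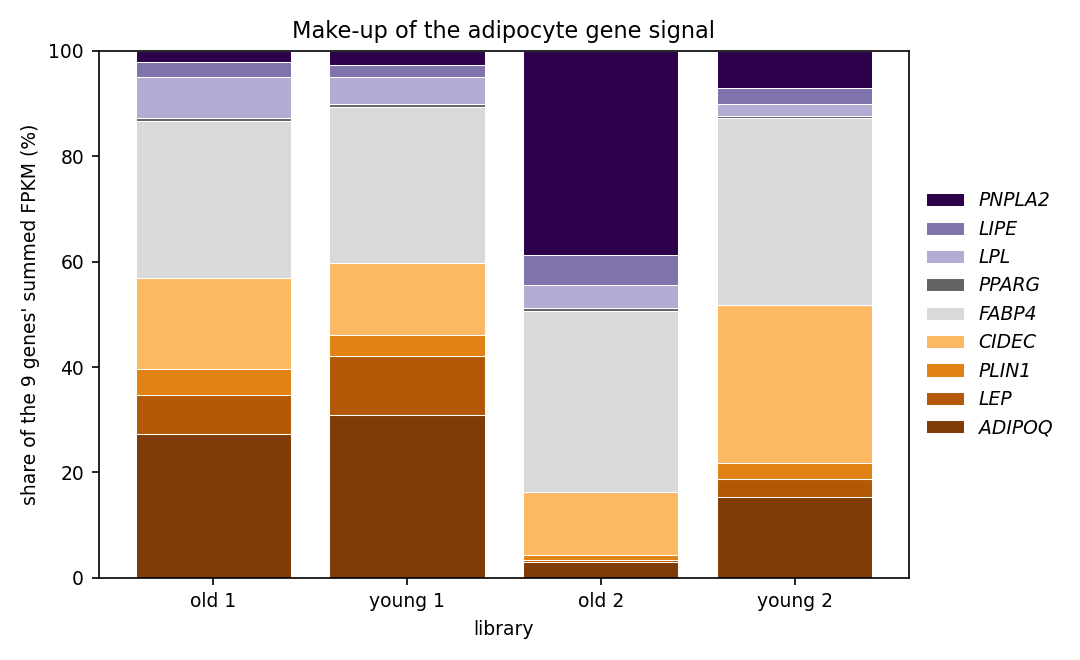
Share of each gene in the summed FPKM of the 9 matched genes (vertical axis, percent) in old 1, young 1, old 2 and young 2. Old 1 and young 1 have a similar make-up, and old 2 stands apart with 38.7% from PNPLA2 and 3.04% from ADIPOQ.

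The wider pathway was read from 9 lists of 107 genes in all, of which 98 were matched and 88 had a mean of at least 1 FPKM. Of these 88, limma called 0 higher and 0 lower, with 1 higher (PCK1) and 1 lower (THRSP) at unadjusted p under 0.05. Of the 79 that are not among the 9 genes, 21 were higher and 26 lower in each number, beside the 26.7% and 23.1% of loci above. Their median was 0.04 in number 1 and -0.18 in number 2 on the log2 ratio scale. A list's count of genes higher or lower in each number moved by at most 1 gene under median-of-ratios scaling or with small structural RNAs and mitochondrial loci removed.

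Of 11 lipid droplet genes tested besides PLIN1 and CIDEC, 4 were higher in each number and 0 lower in each, with medians of 0.38 in number 1 and 0.16 in number 2. FITM1, which partitions fat into droplets, stood at 30.1 FPKM in old 1 and 17.5 FPKM in young 1, and at 30.3 FPKM in old 2 and 19.7 FPKM in young 2, with both old libraries above both young ones. PLIN2, the coat protein of droplets in most cell types, stood at 6.66 FPKM in old 1 and 4.02 FPKM in young 1, and at 7.19 FPKM in old 2 and 4.38 FPKM in young 2. PLIN5, a droplet protein of oxidative tissues, stood at 2.47 FPKM in old 1 and 0.802 FPKM in young 1, and at 3.47 FPKM in old 2 and 0.338 FPKM in young 2. PLIN2 and PLIN5 were picked after their values were seen. CAVIN1 and CAV1, which build the caveolae abundant on adipocytes, split by number as PLIN1 and CIDEC did. CAVIN1 stood at 64.5 FPKM in old 1 and 45.8 FPKM in young 1, and at 57.7 FPKM in old 2 and 85.9 FPKM in young 2. CAV1 stood at 71.9 FPKM in old 1 and 55.1 FPKM in young 1, and at 21.2 FPKM in old 2 and 36.6 FPKM in young 2. The locus of BSCL2, the droplet assembly protein seipin, is joined with LRRN4CL and had folds of 1.03 in number 1, where its direction turned under other scalings, and 1.16 in number 2.

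Of 6 tested genes that act with the lipases or control them, 1 was higher and 1 lower in each number. ABHD5, the activator of PNPLA2, stood at 6.19 FPKM in old 1 and 7.77 FPKM in young 1, and at 20.4 FPKM in old 2 and 13.2 FPKM in young 2. MGLL, which completes lipolysis, stood at 14.1 FPKM in old 1 and 22.8 FPKM in young 1, and at 12.2 FPKM in old 2 and 26.5 FPKM in young 2. MGLL had both old libraries below both young ones, the opposite of LIPE. PRKAR2B, the regulatory subunit of protein kinase A in fat, stood at 14.4 FPKM in old 1 and 10.9 FPKM in young 1, and at 2.22 FPKM in old 2 and 6.48 FPKM in young 2. PDE3B, which breaks down the cyclic AMP that drives lipolysis, stood at 13.8 FPKM in old 1 and 9.39 FPKM in young 1, and at 0.784 FPKM in old 2 and 1.41 FPKM in young 2. AQP7, the glycerol channel of adipocytes, was chosen after its values were seen and stood at 5.02 FPKM in old 1 and 3.15 FPKM in young 1, and at 6.83 FPKM in old 2 and 0.422 FPKM in young 2.

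Of 14 tested genes that make fatty acids and triglyceride, 3 were higher in each number and 6 lower in each, with medians of -0.16 in number 1 and -0.24 in number 2. FASN, fatty acid synthase, stood at 70.0 FPKM in old 1 and 158 FPKM in young 1, and at 16.2 FPKM in old 2 and 52.5 FPKM in young 2. GPD1, which supplies the glycerol backbone, stood at 52.4 FPKM in old 1 and 75.3 FPKM in young 1, and at 8.74 FPKM in old 2 and 27.1 FPKM in young 2. DGAT2, which adds the last fatty acid, stood at 76.5 FPKM in old 1 and 67.8 FPKM in young 1, and at 53.2 FPKM in old 2 and 62.1 FPKM in young 2. ACLY, which makes acetyl-CoA for fatty acid synthesis, had folds of 0.551 in number 1 and 0.863 in number 2. PCK1, which makes glycerol precursors in fat, stood at 19.7 FPKM in old 1 and 4.00 FPKM in young 1, and at 14.0 FPKM in old 2 and 1.32 FPKM in young 2, and did not pass the adjusted test. THRSP, a lipogenic regulator, stood at 15.4 FPKM in old 1 and 38.6 FPKM in young 1, and at 6.25 FPKM in old 2 and 28.5 FPKM in young 2, and did not pass either.

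Among 9 fatty acid uptake and binding genes besides FABP4 and LPL, 3 were higher and 4 lower in each number. CD36, a fatty acid transporter of adipocytes, endothelium and macrophages, stood at 66.2 FPKM in old 1 and 83.8 FPKM in young 1, and at 14.8 FPKM in old 2 and 24.6 FPKM in young 2. ACSL1, which activates fatty acids, had ratios close to 1 in both numbers (1.11 and 1.06). The fatty acid binding protein of muscle and heart, FABP3, had folds of 0.757 in number 1 and 1.34 in number 2. FABP5, the epidermal binding protein, had folds of 1.47 in number 1 and 0.323 in number 2. ANGPTL4, a secreted inhibitor of lipoprotein lipase named after its values were seen, stood at 5.19 FPKM in old 1 and 2.26 FPKM in young 1, and at 45.6 FPKM in old 2 and 9.18 FPKM in young 2.

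Among the transcription factors of fat cell formation, 10 besides PPARG were tested, of which 4 were higher and 3 lower in each number. CEBPA, the partner of PPARG, stood at 13.6 FPKM in old 1 and 12.3 FPKM in young 1, and at 32.7 FPKM in old 2 and 25.4 FPKM in young 2. Its highest values were thus in the number 2 libraries, where PPARG was lowest. EBF1, which acts early in fat cell formation, had folds of 1.59 in number 1 and 1.25 in number 2. SREBF1, a regulator of lipid synthesis, was lower in each number, with folds of 0.788 in number 1 and 0.806 in number 2. RXRA, the DNA-binding partner of PPARG, had folds of 0.989 in number 1 and 0.821 in number 2. Of 8 progenitor genes, 1 was higher and 4 were lower in each number. The folds were 0.581 in number 1 and 0.709 in number 2 for PDGFRB, and 0.978 and 0.409 for DPP4. They were 0.847 and 0.976 for PI16, whose direction in number 2 turned under other scalings, and 1.21 and 0.755 for CD34.

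Of 9 adipokines and receptors besides ADIPOQ and LEP, 1 was higher and 5 were lower in each number. The receptor ADIPOR1 stood at 20.3 FPKM in old 1 and 21.9 FPKM in young 1, and at 14.0 FPKM in old 2 and 16.2 FPKM in young 2. ADIPOR2 stood at 50.4 FPKM in old 1 and 66.3 FPKM in young 1, and at 18.1 FPKM in old 2 and 20.1 FPKM in young 2, where its direction turned under another scaling (log2 ratio 0.05). CDH13, which binds adiponectin, had folds of 1.34 in number 1 and 0.462 in number 2. LEPR, the leptin receptor, named after its values were seen, stood at 11.9 FPKM in old 1 and 17.4 FPKM in young 1, and at 2.18 FPKM in old 2 and 3.49 FPKM in young 2. The locus of CFD, the adipocyte protease adipsin, is joined with ARID3A and stood at 18.8 FPKM in old 1 and 9.32 FPKM in young 1, and at 46.3 FPKM in old 2 and 52.7 FPKM in young 2, where its direction turned in the same way (log2 ratio 0.02).

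The insulin and glucose uptake list had medians of 0.04 in number 1 (-0.03 under both other scalings) and 0.72 in number 2 over 8 genes, of which 4 were higher and 1 lower in each number. SLC2A4, the insulin-responsive glucose transporter of fat and muscle, stood at 20.0 FPKM in old 1 and 26.2 FPKM in young 1, and at 23.0 FPKM in old 2 and 9.40 FPKM in young 2. INSR, the insulin receptor, stood at 20.3 FPKM in old 1 and 14.3 FPKM in young 1, and at 10.4 FPKM in old 2 and 4.38 FPKM in young 2. Downstream of the receptor, AKT2 had folds of 0.875 in number 1 and 1.12 in number 2, and PIK3R1 had folds of 0.781 and 0.402. UCP1, the heat-producing carrier of brown fat, lay at the floor value of 0.0001 FPKM in old 1, young 1 and young 2 and at 1.07 FPKM in old 2. Of the thermogenic list 5 genes were tested, 0 higher and 2 lower in each number. The folds were 1.34 in number 1 and 0.520 in number 2 for CIDEA, 0.824 and 0.631 for PPARGC1A, 0.793 and 1.00 for COX7A1, and 0.530 and 0.218 for CKB.

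**Figure D5:**
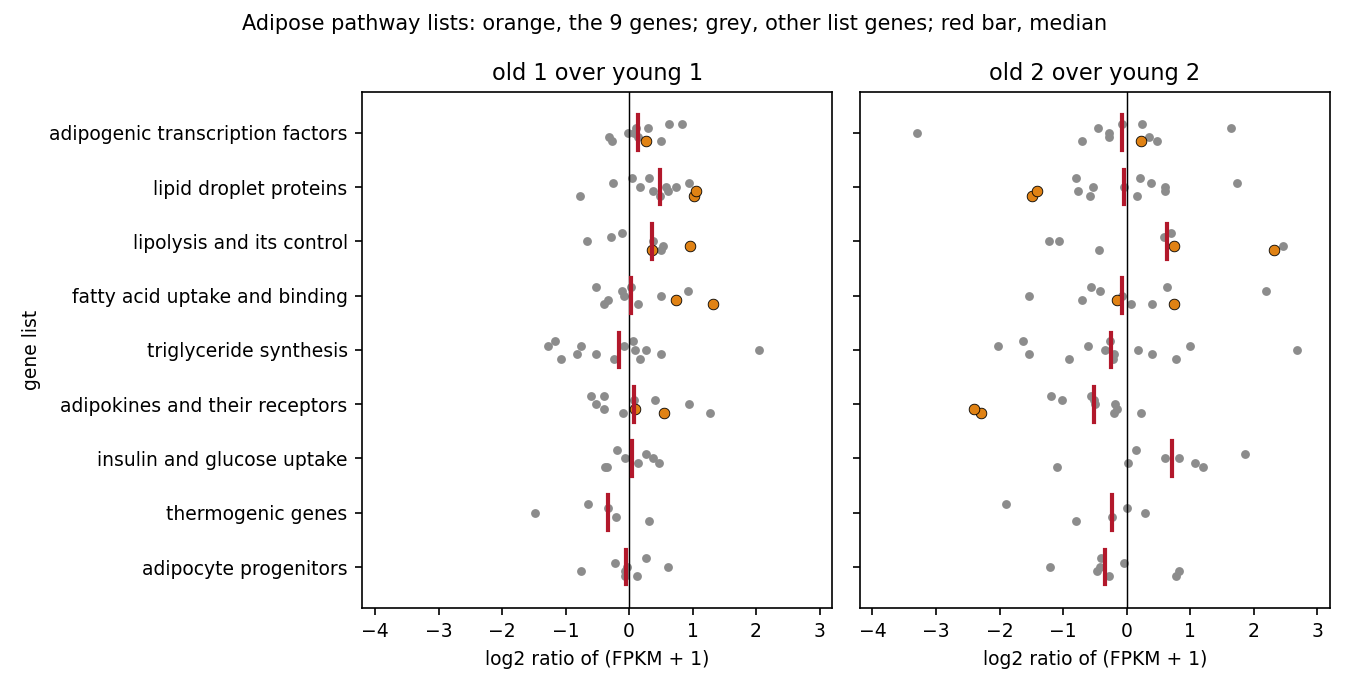
Log2 ratio of (FPKM + 1), old over young, of each tested gene in the 9 pathway lists, in number 1 (left) and number 2 (right), with the 9 matched genes in orange, other list genes in grey and list medians as red bars. The lipid droplet list has its matched genes at the high end in number 1 and at the low end in number 2.

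The pathway annotation in the tables was read after values were seen. The authors' tables annotate 73 loci to the KEGG pathway of PPAR signalling, among them ADIPOQ, PPARG, the PLIN1 locus, FABP4 and LPL. Over its 56 tested loci the median was 0.24 in number 1 and 0.02 in number 2 on the log2 ratio scale. The KEGG pathway of lipolysis regulation in adipocytes holds the PLIN1 locus, FABP4, LIPE and PNPLA2, and its 34 tested loci had medians of 0.05 in number 1 and 0.08 in number 2.

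Markers of other cells in full-thickness skin were read beside these genes. Of 9 matched skeletal muscle genes of 12 listed, 7 were higher and 1 lower in each number. They summed to 4354 FPKM in old 1 and 5912 in old 2, against 3427 in young 1 and 4202 in young 2. ACTA1, skeletal actin, stood at 1832 FPKM in old 1 and 1349 FPKM in young 1, and at 1332 FPKM in old 2 and 871 FPKM in young 2. Muscle also expresses LPL, PNPLA2, PLIN5 and SLC2A4, and its part in their values was not tested. All 8 dermal fibroblast markers were lower in each number, but by unlike amounts. In number 1 the folds were 0.995 for LUM, 0.978 for DPP4, 0.969 for DCN, 0.954 for PDGFRA and 0.581 for PDGFRB. The fibrillar collagens COL1A1, COL1A2 and COL3A1 had folds of 0.0943, 0.117 and 0.0817 there. In number 2 the collagens had folds of 0.0100, 0.0129 and 0.00793, and the rest lay between 0.205 (LUM) and 0.785 (PDGFRA). The 8 markers summed to 868 FPKM in old 1 and 258 in old 2, against 6288 in young 1 and 8870 in young 2, and the young sums came mostly from the collagens. The part of fibroblasts in the fat gene values was not tested.

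The sums of the remaining marker lists overlapped between the ages except for pericyte and smooth muscle. Its 6 genes summed to 372 FPKM in old 1 and 446 in old 2, against 213 in young 1 and 227 in young 2, mostly from DES, which is also on the skeletal muscle list (303 FPKM in old 1 and 146 FPKM in young 1, and 416 FPKM in old 2 and 182 FPKM in young 2). The 10 endothelial genes summed to between 86.5 and 128 FPKM and the 9 macrophage genes to between 99.7 and 277 FPKM. The macrophage sum was 99.7 FPKM in old 1 and 128 FPKM in young 1, and 277 FPKM in old 2 and 259 FPKM in young 2. Its genes did not all follow the sum. MRC1 was lower in number 2 at both ages, and CSF1R and CD163 were lower there in young skin only. Sebocyte genes, 8 matched of 9, summed to between 54.1 and 180 FPKM. FASN, which is also on the triglyceride synthesis list, held most of that sum in old 1, young 1 and young 2 (70.0, 158 and 52.5 FPKM). The defining sebocyte gene AWAT1 lay at the floor in old 2 and was low, at 0.321 FPKM, in young 2. The 6 keratinocyte genes summed to 3332 FPKM in old 1 and 3305 FPKM in young 1, and to 5762 FPKM in old 2 and 7288 FPKM in young 2. KRT10 was the largest part of each sum, with 3693 FPKM in old 2 and 3823 FPKM in young 2. KRT1, KRT10 and KRT14 were higher in number 2 at both ages, the KRT1 and KRT14 loci being joined with other keratins. TP63 and DSP were lower in number 2 at both ages, and KRT5 was lower there in old skin only. The part of these cells in the fat gene values was not tested.

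Likeness to the 9 genes was measured as the Euclidean distance of a locus' log2(FPKM + 1) values, centred over the 4 libraries, from the median profile of the 9. The 10 nearest loci with a symbol were DRP2, TRIM45, EEA1, RAB23, ZBED8, KANSL1, ESCO1, STRN3, NUDT12 and DDX58, at distances between 0.15 and 0.19. The median distance of all loci tested was 1.24. The 9 genes themselves lay at 0.31 (FABP4) to 3.27 (PNPLA2), so they did not share 1 profile, and 4 libraries allow no more than a description.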

How the data were processed

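The authors deposited FPKM values, 1 table per library, for 24514 loci with a floor of 0.0001 FPKM. Per the labels' protocols, RNA with an integrity number above 7.5 was depleted of ribosomal RNA (Ribo-Zero Gold) and read as 2 × 150 bases. Tools named, per the submitters' processing notes, are TopHat2, Bowtie2, cutadapt and FastQC. The quantifier is not given in the sources used here, nor is the build, so no coordinates are printed. Among loci under 0.15 FPKM, whole-fragment steps fitted only 3.55% (old 1 over young 1) and 4.35% (old 2 over young 2) of ratios within 0.1%, so fragments could not be recovered, depth is unknown and no counting error is given.

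Symbols came from the tables (16380 loci) or by gene number from RefSeq, H.glaber_assembly_v1.0 (1452 loci). Age was tested with limma (version 3.58.1, under R 4.3.3) from log2(FPKM + 1) of the 12753 loci averaging 1 FPKM or more, with a mean-variance trend, two-sided, with Benjamini-Hochberg adjustment at 0.05 over all of them. On simulated data, the size of a known change had to be recovered both with and without library number in the fit. A minimum of calls was required only with library number in the fit. The check therefore does not show that the main fit, without it, would call such changes. Within a number, ratios are 1 library over 1 library and have no test. The genes, lists and tests were chosen with earlier results of these data known. Named were the 9 genes and the 4 other genes of highest mean per pathway list. Also named were the 2 per other cell type (most are left out) and the 10 of nearest pattern. Exceptions are marked, apart from PCK1, THRSP, UCP1, AWAT1, MRC1, CSF1R and CD163, also chosen after their values were seen. The dermal fibroblast and keratinocyte lists were named in full, beyond that rule. Alternatives were a pseudocount of 0.1, no filter or 5 FPKM, other scalings, moderation and thresholds, loci summed per symbol, a replicate block by library number, and each library left out. Plots were drawn with matplotlib 3.10.9 and tables made with pandas 2.3.3 and numpy 2.4.6, under Python 3.11.15.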

Additional observations from a re-analysis of the deposited data

Results flagged for a closer look

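For 5 of the 9 genes the old library was above the young one in number 1 and below it in number 2, as for 31.5% of the loci tested. The genes had been chosen with their opposite ratios known, so this split is a description, and the difference between numbers was not tested. The log2 ratio in number 2 minus that in number 1 was -2.84 for ADIPOQ, -2.51 for LEP, -2.50 for the PLIN1 locus, -2.45 for CIDEC and -0.88 for FABP4. The medians of the 9 genes differed in the same way, by -0.88, which is the value of FABP4, the middle gene. The direction of FABP4 and of that median in number 2 turned positive, to 0.06, once small structural RNAs and mitochondrial loci had been removed. Small structural RNAs held 51.1% of the summed FPKM in old 1 and 46.8% in young 1, and 0.327% in old 2 and 0.0933% in young 2; their part in these values was not tested.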

How the results depend on the processing

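Calls among the 9 genes stayed at 0 higher and 0 lower under 10 alternatives to the 4-library fit, the threshold of 0.1 included. Leaving out 1 library at a time gave 0 to 0 higher and 0 to 1 lower calls, the 1 being LEP without old 1, where the lone old library is assumed to vary as the young ones do. Over all loci it gave 0 to 24 higher and 0 to 32 lower calls, where the 4-library fit gave 0 and 0, and the cause was not tested. The library numbers are shared by the ages, but 2 pairs cannot show a pairing; deviations of old 1 and young 1 from their age means correlated at 0.823 across loci. With the replicate block limma called 1 locus higher and 2 lower, also with small structural RNA and mitochondrial loci left out (1 and 2), and none of them among the 9 genes. In the limma block fit LPL, LIPE and PNPLA2 had unadjusted p = 0.0112, 0.0189 and 0.0206 and adjusted p = 0.500, 0.578 and 0.590. At unadjusted p under 0.05 that fit had 3 of 9 genes higher and 0 lower, beside 377 of 12753 loci higher and 460 lower.

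Without 1 library the log2 difference ranged from -3.17 to 1.42 for ADIPOQ, -3.57 to 1.26 for LEP and -0.25 to 0.76 for PPARG. It ranged from -2.02 to 1.55 for PLIN1, -1.22 to 0.87 for CIDEC, -0.39 to 0.98 for FABP4 and -0.13 to 2.20 for LPL. The sign of each thus depended on a library. Leaving out 1 library also leaves the library numbers unequal between the ages, so these differences mix age with number. Within each number, PPARG (log2 ratios of 0.27 and 0.23) and LPL (1.33 and 0.75) were higher in old skin. The log2 difference without 1 library stayed positive for LIPE (0.59 to 1.11) and PNPLA2 (0.08 to 2.60). Within a number, 71 of 72 alternative ratios kept their direction, the exception being FABP4 in number 2. A change of pseudocount cannot turn the direction of a ratio, and neither can summing loci where each gene has 1 locus. Only the ratios under the other scalings could have turned, so the count overstates how far directions were checked. Unknown depth limits the lowest values, such as LEP in old 2.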
